A study of Mus musculus with 12 samples.

Results

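The nuclear genes of oxidative phosphorylation were followed in mouse hematopoietic stem cells (HSCs), the rare marrow cells that renew themselves and give rise to all blood lineages. The 94 genes were taken from 46986 features by symbol and by their protein-coding biotype: symbols that begin with Nduf (complex I, 45 genes), Sdha to Sdhd (complex II, 4 genes), symbols that begin with Uqcr and Cyc1 (complex III, 9 genes), Cox4 to Cox8 (complex IV, 18 genes), symbols that begin with Atp5 (complex V, 17 genes) and Cycs, the cytochrome c carrier. The symbols do not follow the complexes in every case. Ndufa4 carries a complex I name but is a subunit of complex IV, the 7 Ndufaf genes encode assembly factors of complex I, Cox7a2l is a factor of respiratory supercomplexes, and Atp5s and Atp5sl are no subunits of the ATP synthase. These genes were kept where their names put them and are described by role.

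RNA was measured in 12 libraries of 2000 sorted bone marrow HSCs each, from 12-week-old C57BL/6 mice, in 4 groups of 3. In the antibiotics 5-FU group, mice had 4 antibiotics in their water (vancomycin, metronidazole, neomycin and ampicillin) over 4 to 6 weeks. They then received 200 mg/kg of intravenous 5-fluorouracil (5-FU), an antimetabolite that kills dividing marrow cells. The control 5-FU mice had the same 5-FU dose without antibiotics, and both 5-FU groups were sampled on day 12. The antibiotics mice had the antibiotics alone, and the control mice had neither. Whether each library stands for its own animal is not stated, so the tests below weigh differences against library-to-library spread, which may be technical. In sorted cells taken in bulk, fewer cells of a type and less RNA per cell cannot be told apart.

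Oxidative phosphorylation passes electrons from NADH through complex I and from succinate through complex II to ubiquinone, then through complex III, cytochrome c and complex IV to oxygen. Complexes I, III and IV pump protons as they do so, and complex V, the ATP synthase, uses the return of these protons to make ATP. Quiescent HSCs are known for relying little on this route and for raising it when they are activated. Complexes I, III, IV and V also hold subunits encoded in mitochondrial DNA. All 13 of these mitochondrial genes stood at the floor of the table in every library, so only the nuclear side could be described.

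Values are given as RPM, the reads of a gene scaled to the total of its library, obtained from the deposited RPKM and the genomic span of each gene. Log2 changes are of RPM + 1 and are given ± SE with adjusted p-values from limma, called at 0.05. Of the 94 genes, 88 reached at least 1 RPM in at least 3 libraries and were tested among 14317 genes. The other 6 were Cox6a2, Cox7a1, Cox7b2, Cox8b, Cox8c and Ndufa4l2. Estimated depth was 27.7 to 54.5 M reads per library. The 3 libraries control 5-FU 1, control 5-FU 2 and control 5-FU 3 were unequal: the first correlated with the others at Pearson's r = 0.944 and 0.947 across tested genes, and these 2 correlated at 0.986. Library antibiotics 5-FU 1 likewise correlated at 0.970 to 0.972 with its group, against 0.988 between its partners. The i7 sequencing indexes of the 5-FU libraries were not used in the other libraries, so i7 index and 5-FU cannot be told apart.

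Promoters are shown for 4 genes whose changes the results turn on, picked after their values were seen. They are Cycs, Ndufa4 and Atp5g1, which were lower after 5-FU, and Cox7a2l, the single gene called higher. Sequences are from RefSeq on GRCm38.p6, 250 bases before to 30 bases after the annotated start, at chr6:50566540-50566819 for Cycs, chr6:11907421-11907700 for Ndufa4, chr11:96075602-96075881 for Atp5g1 and chr17:83514304-83514583 for Cox7a2l, all on the minus strand and printed 5′ to 3′ along it. Capitals mark a match to a searched motif.
Cycs: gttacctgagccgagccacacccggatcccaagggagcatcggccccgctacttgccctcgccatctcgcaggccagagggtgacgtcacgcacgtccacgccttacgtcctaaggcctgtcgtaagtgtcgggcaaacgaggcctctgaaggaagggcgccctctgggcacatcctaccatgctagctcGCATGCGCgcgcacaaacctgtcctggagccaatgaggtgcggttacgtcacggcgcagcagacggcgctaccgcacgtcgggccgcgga
Ndufa4: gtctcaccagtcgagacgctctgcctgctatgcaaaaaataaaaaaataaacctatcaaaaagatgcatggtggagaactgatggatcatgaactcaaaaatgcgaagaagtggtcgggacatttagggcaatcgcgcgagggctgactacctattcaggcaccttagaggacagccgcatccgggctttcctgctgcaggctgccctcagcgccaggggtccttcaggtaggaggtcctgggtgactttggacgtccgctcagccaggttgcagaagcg
Atp5g1: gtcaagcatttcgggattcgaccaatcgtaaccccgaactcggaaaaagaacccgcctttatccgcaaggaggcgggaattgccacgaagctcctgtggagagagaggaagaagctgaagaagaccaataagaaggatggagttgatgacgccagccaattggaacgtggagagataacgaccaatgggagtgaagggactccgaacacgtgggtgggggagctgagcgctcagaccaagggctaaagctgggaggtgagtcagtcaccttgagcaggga
Cox7a2l: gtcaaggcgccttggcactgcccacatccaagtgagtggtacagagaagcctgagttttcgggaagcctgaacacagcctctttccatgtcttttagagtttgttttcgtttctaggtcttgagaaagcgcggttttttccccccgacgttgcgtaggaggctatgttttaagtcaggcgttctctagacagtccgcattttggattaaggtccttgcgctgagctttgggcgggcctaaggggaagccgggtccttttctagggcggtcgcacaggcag

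Of the 94 genes, 74 had such a window. Nuclear respiratory factor 1 (NRF1) is known to drive many of these genes, and its motif, GCGCA and GCGC with any base between them, searched on both strands, was in 17 of the 74 windows (23.0%), against 6.60% of the 15980 protein-coding promoters of the same length. Among tested genes outside the group it was in 10.2%. A shorter form, GCATGCGC, which the longer one contains when that base is T, was added after the Cycs promoter had been read, since Cycs holds it and lacks the longer one. It was in 12 windows (16.2%), against 3.57% of all promoters. The ETS motif CCGGAAG, of the kind GABP binds, was in 16 windows (21.6%), against 11.7% of all promoters and 17.9% of tested genes outside the group. The YY1 motif AAGATGGCG was in 0 of 74, against 1.39% of all promoters and 2.25% of tested genes outside the group. Genes with the longer NRF1 motif had a median log2 change of -0.35 after 5-FU with antibiotics (17 genes), and those without it -0.23 (54 genes). Without antibiotics the medians were -0.33 and -0.27. For the shorter form they were -0.38 (12 genes) and -0.24 (59 genes) with antibiotics and -0.35 and -0.27 without. For the ETS motif they were -0.23 (16 genes) and -0.29 (55 genes) with antibiotics and -0.34 and -0.25 without. Motif matches are descriptions and were given no test.

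Per kb of transcript, levels in control HSCs spanned from 2.96 ± 1.06 RPM per kb for Cox4i2 to 743 ± 43.4 for Atp5b, the catalytic subunit of the ATP synthase (SD, n = 3). In complex I the highest was Ndufa4 at 371 ± 31.4 RPM per kb and the lowest tested gene was Ndufaf5, an assembly factor, at 7.86 ± 1.71. In complex II, Sdha, the flavoprotein that oxidises succinate, stood at 198 ± 10.9 and Sdhc, a membrane anchor, at 36.4. In complex III, Uqcrc1, a core subunit, stood at 303 ± 29.3 and Uqcrc2, the other core subunit, at 76.6 ± 8.36. Complex IV was led by Cox4i1 at 443 ± 24.1. Cycs stood at 19.7 ± 3.23 on this scale, below the median of every complex, which ran from 88.0 for complex I to 205 for complex III. The medians compare genes by annotated transcript length and depend on which transcript is taken.

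**Figure D1:**
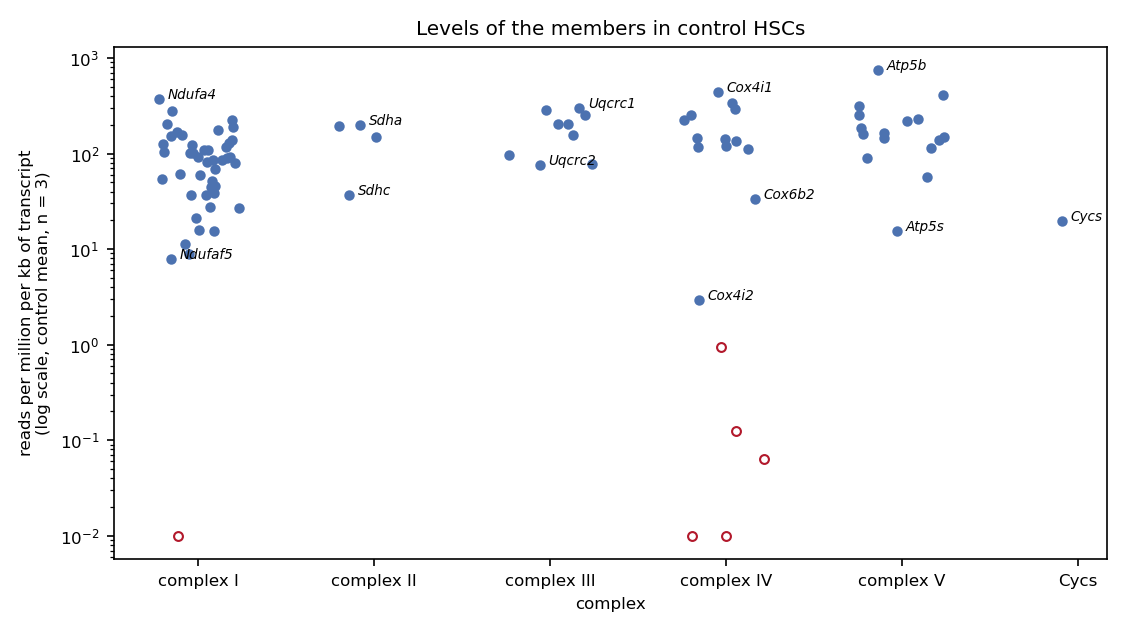
Level of each gene in control HSCs, as the mean of 3 libraries in RPM per kb of transcript on a log scale, by complex. Filled points passed the filter and open points did not; values below 0.01 are drawn at 0.01. Atp5b stands highest at 743, and the untested complex IV isoforms lie below all tested genes.

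Several isoforms known from muscle, testis or lung were nearly missing. Cox6a2, the muscle form, was at most 0.06% of Cox6a1 and Cox6a2 together, per kb of transcript, in any library, and Cox8c was at the floor in all 12. Cox4i2, the lung form of subunit 4, took 1.71 ± 0.19% of the subunit 4 transcripts in antibiotics 5-FU HSCs, 1.10 ± 0.53% in control 5-FU HSCs, 1.15 ± 0.19% in antibiotics HSCs and 0.665 ± 0.23% in control HSCs (SD, n = 3 each). At 1.42 to 5.58 RPM its values are low, and it was called in no comparison. Cox6b2, known as a testis form, was an exception and gave 16.7 ± 0.41% of the subunit 6b transcripts in antibiotics 5-FU HSCs, 13.97 ± 1.17% in control 5-FU HSCs, 14.7 ± 0.31% in antibiotics HSCs and 12.98 ± 1.72% in control HSCs.

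After 5-FU, more of these genes were lower than higher, in HSCs of both kinds of mice. With antibiotics, 25 of the 88 fell and 1 rose, against a background of 10.3% of all tested genes called lower and 11.6% called higher (21.9% in all). Without antibiotics, 18 fell and 0 rose, against 7.97% and 8.94% (16.9% in all). Other genes with short transcripts were called lower more often than all genes, as given below with transcript length. The median log2 change of the 88 genes was -0.24 with antibiotics and -0.27 without, beside 0.02 and 0.04 for all tested genes. The changes were small: the largest drops were 0.93 for Cycs and 0.73 for Ndufa4 on the log2 scale. In 56 of the 88 genes every antibiotics 5-FU library lay below every antibiotics library, and in 2 above it, against backgrounds of 21.3% and 22.2%. Without antibiotics the counts were 34 and 0, against 15% and 17.9%.

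The summed RPM of all 94 genes was 10708 ± 517 in antibiotics 5-FU HSCs, against 12113 ± 399 in antibiotics HSCs (SD, n = 3). It was 10293 ± 885 in control 5-FU HSCs, against 12112 ± 874 in control HSCs. Each 5-FU library lay below each library of its own comparison group, at 10135 to 11140 against 11686 to 12475 with antibiotics, and at 9370 to 11134 against 11200 to 12942 without. The size of this drop depends on the scale. With RPKM rescaled to a common sum, the mean totals were 11257 in antibiotics 5-FU HSCs, against 11281 in antibiotics HSCs, and 11109.7 in control 5-FU HSCs, against 11539 in control HSCs. On that scale the sums of complexes II, III and V with antibiotics, and of complex II without, were higher after 5-FU. In control 5-FU HSCs the genes stood lowest in library 3, where the median log2 difference from the control mean was -0.45, and highest in library 1, at -0.12. Control 5-FU 1 is also the library that correlated least with its group. Its omission raised the calls without antibiotics to 47, and the omission of control 5-FU 3 lowered them to 4. Omitting control 1 gave 7 calls and omitting control 3 gave 5. Omitting control 5-FU 2 gave 9. With antibiotics, the 26 calls became 6 without antibiotics 2, 7 without antibiotics 5-FU 2, 11 without antibiotics 5-FU 3, 16 without antibiotics 3 and 17 without antibiotics 1.

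**Figure D2:**
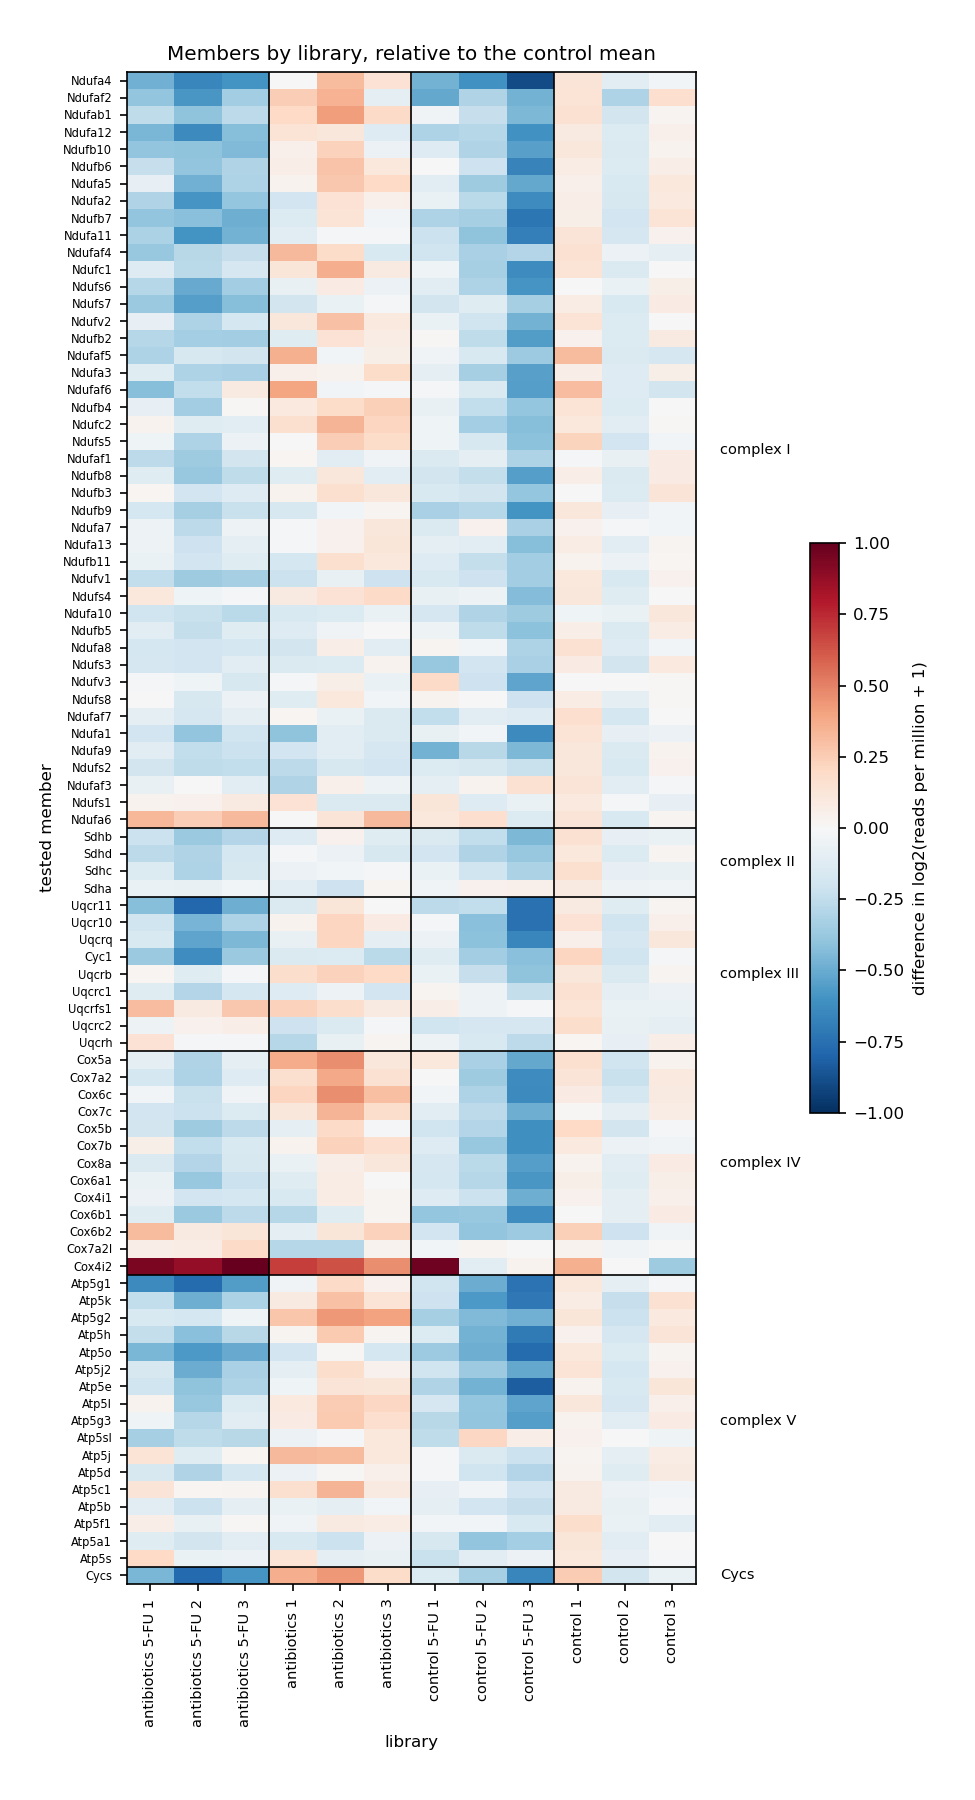
Difference of each tested gene (rows, grouped by complex and sorted by the change after 5-FU with antibiotics) from the mean of the 3 control libraries, in log2(RPM + 1), in each of the 12 libraries (columns). Most genes are blue in the 5-FU columns, deepest in control 5-FU 3, while Cox4i2 is red in all 3 antibiotics 5-FU libraries and Ndufa6 in the same 3. The colours also hold differences of antibiotics from control. For Cox4i2 that log2 difference was 0.60 without 5-FU, beside a change of 0.37 after 5-FU with antibiotics, both uncalled.

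By complex, the medians after 5-FU with antibiotics were -0.25 for I, -0.17 for II, -0.24 for III, -0.24 for IV and -0.32 for V. Without antibiotics they were -0.24, -0.24, -0.23, -0.33 and -0.36 in the same order. With antibiotics, 13 of 44 tested complex I genes, 0 of 4 of complex II, 1 of 9 of complex III, 3 of 13 of complex IV and 7 of 17 of complex V were called lower. Without antibiotics the counts were 7, 1, 0, 2 and 8. Of all tested genes, 10.3% were called lower with antibiotics and 7.97% without. The 0 or 1 calls in complexes II and III do not set them apart from all genes. Within complex I alone the changes ran over -0.73 to 0.15 with antibiotics and over -0.66 to 0.05 without, a wider range than that of the complex medians. No difference between complexes was tested. When RPKM was instead rescaled to a common sum, the median of all tested genes moved to 0.18 with antibiotics and 0.20 without. The median of the 88 genes was then -0.07 and -0.10, which is below all genes by a like amount, and that of complex II with antibiotics turned to 0.01. Genes below 0 then numbered 53 of 88 with antibiotics, against 76 on RPM, and 65 without, against 81. Under that scaling 8 genes were called lower and 4 higher with antibiotics, and 5 lower without.

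**Figure D3:**
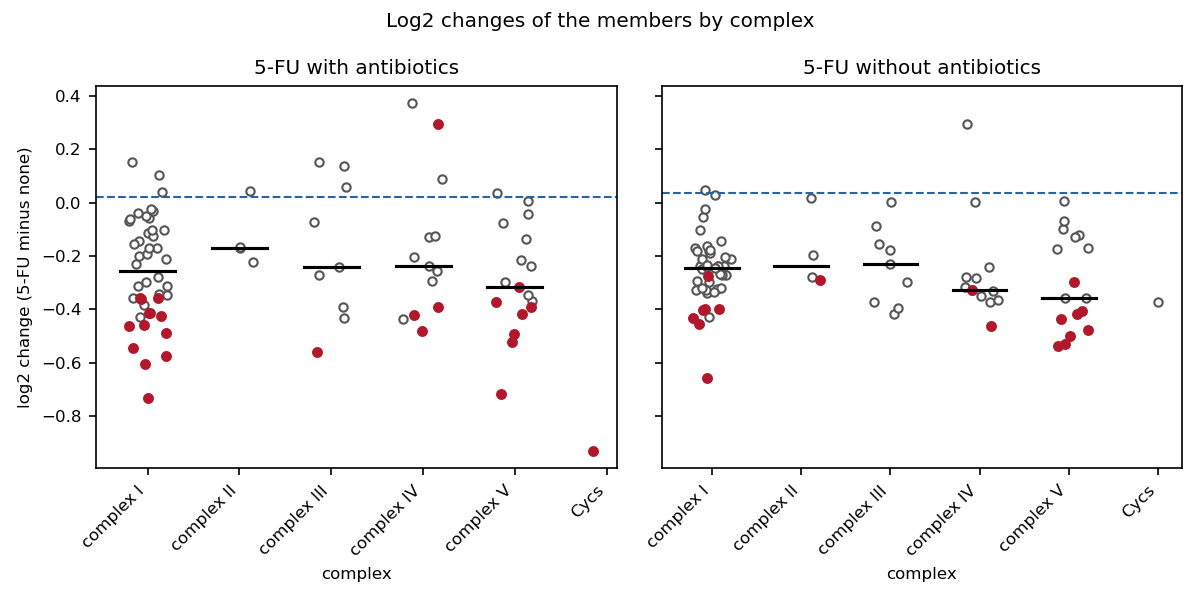
Log2 change after 5-FU of each tested gene by complex, with antibiotics on the left and without on the right. Red points were called by limma at an adjusted p under 0.05, black bars are complex medians and the dashed line is the median of all tested genes; the complex medians lie between -0.17 and -0.36, below that line.

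Ndufa4 (mm10, chr6:11900292-11907497, minus strand) fell in both comparisons. It had 161, 143 and 149 RPM in the 3 antibiotics 5-FU libraries, against 226, 280 and 250 in antibiotics libraries. It had 162, 148 and 121 in control 5-FU libraries, against 247, 210 and 222 in control libraries. In both pairs every 5-FU library was below every other library. The log2 change was -0.73 ± 0.11 with antibiotics (adjusted p = 0.00116) and -0.66 ± 0.11 without (adjusted p = 0.00341), and its call held in all 24 alternatives of each comparison. Its relative Ndufa4l2, known as a hypoxia-induced form, made up at most 0.20% of the pair in any library.

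Among the complex I genes, 7 are core subunits that carry the electron path, which bacteria also have. Ndufs1, the largest core subunit, had 118, 119 and 123 RPM in antibiotics 5-FU libraries, against 128, 105 and 104 in antibiotics libraries, and the groups overlapped. Its log2 changes were 0.10 ± 0.10 with antibiotics and -0.02 ± 0.10 without (adjusted p = 0.476 and 0.893). The median of the 7 core subunits was -0.07 with antibiotics and -0.21 without, beside -0.28 and -0.27 for the 29 accessory subunits. No difference between these roles was tested, and the core genes have longer transcripts, with medians of 1623 bases, against 732. With the trend over transcript length taken out, described below, the core medians were 0.01 and -0.12, beside -0.11 and -0.11 for the accessory subunits, so without antibiotics the order was not kept. With antibiotics, 2 core subunits were called lower, Ndufs7 and Ndufv2, both of which hold iron-sulfur clusters, and without antibiotics 0 were. Of all tested genes, 10.3% and 7.97% were called lower, and 7 genes are too few to set the core apart. Ndufv1, which binds NADH, had log2 changes of -0.14 ± 0.09 and -0.24 ± 0.09 and was called in neither comparison.

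Accessory subunits surround this core. With antibiotics 8 of 29 fell, and without antibiotics 6 of 29 fell, against 10.3% and 7.97% of all tested genes. Their median transcript has 732 bases, and of other genes of 600 to 900 bases 19.8% and 16.9% were called lower. Ndufab1, the mitochondrial acyl carrier protein, had 43.2, 38.8 and 42.8 RPM in antibiotics 5-FU libraries, against 59.4, 69.4 and 59.1 in antibiotics libraries, with no overlap. The change was -0.58 ± 0.13 (adjusted p = 0.00708). Without antibiotics, it had 50.3, 43.9 and 37.6 in control 5-FU libraries, against 57.7, 45.4 and 52.7 in control libraries. These groups overlapped, and the change of -0.24 ± 0.13 did not pass (adjusted p = 0.212). Ndufa12 fell in both comparisons, by 0.54 with antibiotics and 0.40 without on the log2 scale, and Ndufb10, named after its values were seen, fell by 0.49 with antibiotics (adjusted p = 0.010).

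A different accessory subunit, Ndufa9, was lower without antibiotics. It had 88.3, 102 and 89.9 RPM in control 5-FU libraries, against 133, 111 and 126 in control libraries, with no overlap, and a change of -0.40 ± 0.09 (adjusted p = 0.00982). With antibiotics its change was -0.03 ± 0.09 (adjusted p = 0.831). The difference between these changes was 0.37 ± 0.12 and had an adjusted p of 0.656, so a difference between the 2 kinds of mice was not shown. Ndufb9 fell by 0.40 on the log2 scale without antibiotics (adjusted p = 0.0159). Of the 7 assembly factors, 2 fell with antibiotics, Ndufaf2 and Ndufaf4, and 0 without, against 10.3% and 7.97% of all tested genes. So few genes do not set this role apart.

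Complex II is built of 4 nuclear subunits alone. Sdha had 547, 543 and 563 RPM in antibiotics 5-FU libraries, against 529, 496 and 583 in antibiotics libraries. It had 558, 589 and 594 in control 5-FU libraries, against 610, 552 and 558 in control libraries. The groups overlapped in both cases, and the changes were 0.04 ± 0.07 and 0.02 ± 0.07. Sdhb, the iron-sulfur subunit, had changes of -0.22 ± 0.10 and -0.28 ± 0.10, called in neither comparison though its groups did not overlap. Sdhd, a membrane anchor, fell without antibiotics by 0.29 on the log2 scale (adjusted p = 0.0312).

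Complex III passes electrons from ubiquinol to cytochrome c. Its large and catalytic subunits, Uqcrc1, Uqcrc2, the Rieske protein Uqcrfs1 and cytochrome c1 (Cyc1), had a median of -0.01 with antibiotics and -0.13 without, and 0 of 4 were called in either. Uqcrfs1 changed by 0.06 ± 0.09 and 0.00 ± 0.09, and Uqcrc1 by -0.07 ± 0.09 and -0.09 ± 0.09. The 5 small subunits had medians of -0.39 and -0.37. With the length trend taken out, the medians were 0.04 and -0.10 for the 4 large and catalytic subunits and -0.13 and -0.12 for the small ones. Uqcr11 had 94.0, 73.3 and 90.2 RPM in antibiotics 5-FU libraries, against 115, 138 and 127 in antibiotics libraries, with no overlap. It was the single complex III gene called, at -0.56 ± 0.14 with antibiotics (adjusted p = 0.0141), while without antibiotics the change was -0.42 ± 0.14 (adjusted p = 0.0611).

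Cytochrome c, encoded by Cycs (mm10, chr6:50562563-50566538, minus strand), carries electrons between complexes III and IV and is known for its part in apoptosis. It had 44.3, 35.3 and 40.2 RPM in antibiotics 5-FU libraries, against 78.7, 82.8 and 69.4 in antibiotics libraries. It had 55.5, 48.5 and 38.4 in control 5-FU libraries, against 73.0, 53.6 and 58.3 in control libraries. With antibiotics the groups did not overlap, and without antibiotics they overlapped. The log2 change was -0.93 ± 0.15 with antibiotics (adjusted p = 0.00139) and -0.37 ± 0.15 without (adjusted p = 0.109). The difference between the 2 changes, -0.56 ± 0.21, had an adjusted p of 0.666. Cycs has a transcript of 3123 bases, among the longest of the 94.

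Complex IV reduces oxygen to water. All 10 of its common nuclear subunits had log2 changes below 0 in both comparisons, though with antibiotics 8 of 10 did on the common sum of RPKM and 7 with the length trend taken out, where Cox4i1, Cox6a1 and Cox6b1 were above 0. Cox6b1, which lies at the dimer interface, had 106, 106 and 89.8 RPM in control 5-FU libraries, against 139, 131 and 147 in control libraries. These did not overlap, and the change was -0.46 ± 0.10 (adjusted p = 0.011). With antibiotics it had 127, 107 and 116 in 5-FU libraries, against 114, 127 and 141 in antibiotics libraries, which overlapped at -0.12 ± 0.10 (adjusted p = 0.422). Cox8a was the other complex IV gene to fall without antibiotics, and Cox5a, Cox6c and Cox7c fell with antibiotics. Cox4i1, the regulatory subunit 4, had changes of -0.13 ± 0.10 and -0.28 ± 0.10 and was called in neither.

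Cox7a2l (mm10, chr17:83501919-83514333, minus strand) was the single gene of the 94 called higher. It had 153, 154 and 167 RPM in antibiotics 5-FU libraries, against 119, 119 and 149 in antibiotics libraries, without overlap. In control 5-FU libraries it had 143, 149 and 146, against 149, 142 and 146 in control libraries, and these overlapped. The change was 0.29 ± 0.09 with antibiotics (adjusted p = 0.0326) and 0.00 ± 0.09 without (adjusted p = 0.995). The call was lost in 8 of 24 alternatives. Its share of the Cox7a1, Cox7a2 and Cox7a2l transcripts together, per kb, was 54.1 ± 1.22% in antibiotics 5-FU HSCs, against 41.7 ± 4.67% in antibiotics HSCs. It was 54.4 ± 5.56% in control 5-FU HSCs, against 48.7 ± 2.88% in control HSCs, where the shares overlapped and Cox7a2l itself changed by 0.00.

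In complex V, the genes of the c ring fell together. The ring turns as protons pass, and Atp5g1, Atp5g2 and Atp5g3 encode the same mature c subunit behind different import signals. All 3 fell in both comparisons with no overlap of groups. Atp5g1 (mm10, chr11:96068852-96075670, minus strand) had 52.2, 47.6 and 55.1 RPM in antibiotics 5-FU libraries, against 79.6, 93.3 and 84.2 in antibiotics libraries. It had 71.0, 57.7 and 48.5 in control 5-FU libraries, against 88.0, 76.4 and 81.1 in control libraries. Its changes were -0.72 ± 0.13 with antibiotics (adjusted p = 0.00229) and -0.48 ± 0.13 without (adjusted p = 0.0245). Atp5g2 changed by -0.49 ± 0.12 and -0.42 ± 0.12, and Atp5g3, the most abundant of them, by -0.32 ± 0.09 and -0.41 ± 0.09. Per kb, Atp5g1 gave 20.5 ± 0.65% of the c subunit transcripts in antibiotics 5-FU HSCs, against 25.1 ± 0.48% in antibiotics HSCs. Without antibiotics its share was 26.1 ± 1.99% in control 5-FU HSCs, against 27.0 ± 1.14% in control HSCs, and these groups overlapped.

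The catalytic head behaved less evenly. Atp5b had 1320, 1227 and 1330 RPM in antibiotics 5-FU libraries, against 1356, 1332 and 1397 in antibiotics libraries, and its change of -0.08 ± 0.07 did not pass (adjusted p = 0.453). Atp5a1, the other large head subunit, fell by 0.30 on the log2 scale without antibiotics (adjusted p = 0.0278), and its change with antibiotics was 0.00 ± 0.08. In the stalk, Atp5o, the subunit that confers oligomycin sensitivity, had 96.7, 88.7 and 72.9 RPM in control 5-FU libraries, against 134, 113 and 127 in control libraries. They did not overlap, and its change was -0.54 ± 0.11 without antibiotics (adjusted p = 0.00690) and -0.39 ± 0.11 with antibiotics (adjusted p = 0.0232). The deposited span of Atp5o is chr16:91684398-91931687, and 43.8% of its exon bases are shared with other genes, so its reads may not all be its own.

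**Figure D4:**
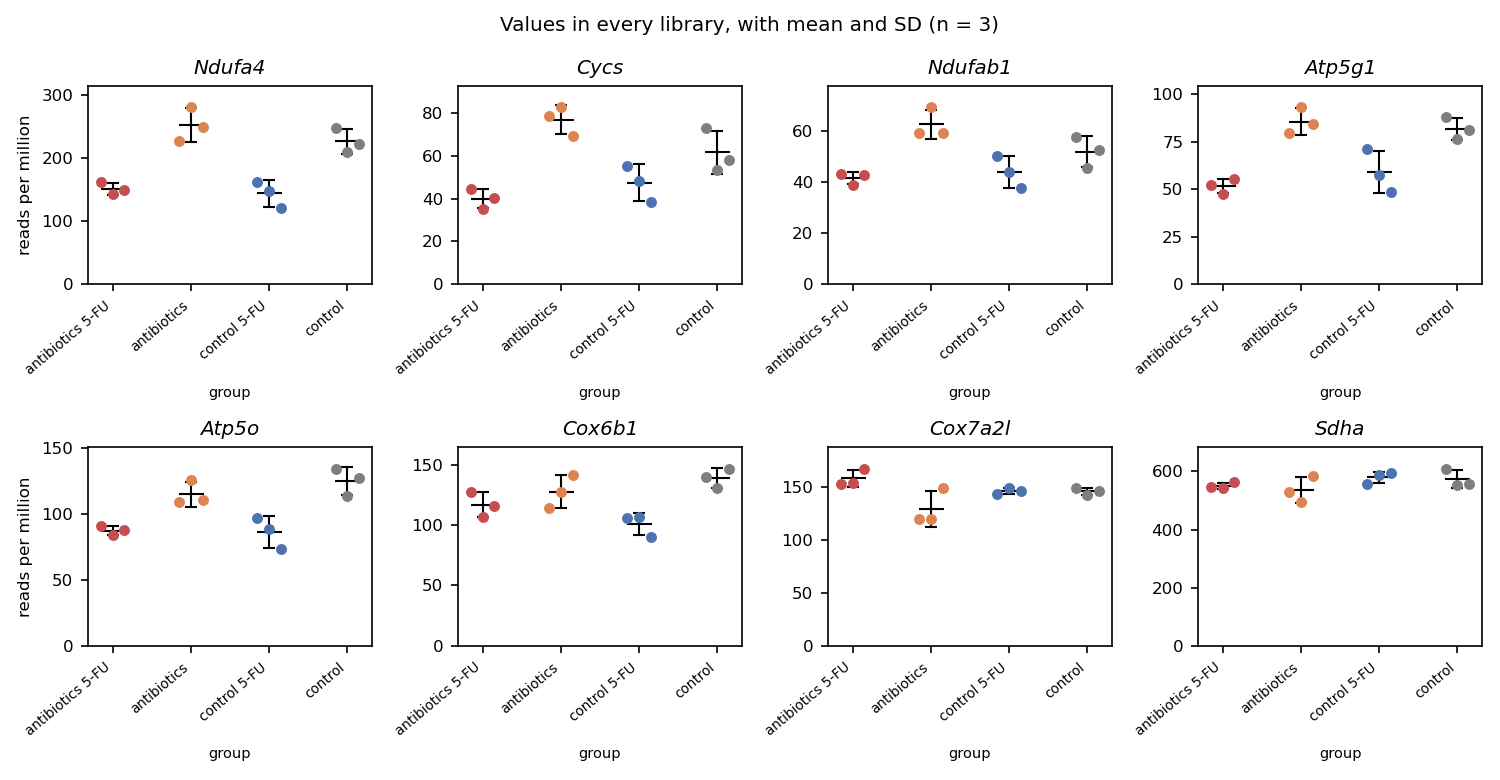
RPM of 8 genes in every library (points), with the group mean and SD (n = 3). Ndufa4, Cycs, Ndufab1 and Atp5g1 are lower in antibiotics 5-FU than in antibiotics libraries without overlap, Cox7a2l is higher, and Sdha overlaps.

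The 2 comparisons of 5-FU contrast different libraries but come from 1 model, in which each gene has a shared estimate of spread. Their calls are therefore not independent: omitting control 5-FU 1 moved the calls with antibiotics from 26 to 37. The 2 comparisons called 10 genes lower in common, Atp5g1, Atp5g2, Atp5g3, Atp5h, Atp5k, Atp5o, Ndufa4, Ndufa11, Ndufa12 and Ndufb7. That is 40% of the 25 with antibiotics and 55.6% of the 18 without. The calls in common over all tested genes were not counted, so this overlap cannot be called particular to these genes. The interaction, which tests whether the 5-FU change differed with antibiotics, called 0 of the 88 genes and 0 of all 14317 (0%). An unadjusted p under 0.05 was reached by 7 of the 88, against 1047 of all 14317, a like share. Antibiotics against none called 0 of the 88 by limma after 5-FU, against 0.119% of all genes (0.0419% lower and 0.0768% higher). An unadjusted p under 0.05 was reached by 10 of the 88, against 1850 of all 14317. At steady state, antibiotics against none called 0 of the 88, against 0.021% (0.014% lower and 0.00698% higher). An unadjusted p under 0.05 was reached by 6 of the 88, against 2226 of all 14317. Neither share was above that of all genes. All antibiotics libraries lay below all of their comparison group for 1 gene after 5-FU, against 8.27% of all genes, and above it for 11, against 10.9%. At steady state these counts were 2, against 8.06%, and 10, against 11.8%. The smallest adjusted p was 0.208 for Cox6b2 after 5-FU and 0.211 for Atp5g2 at steady state. Atp5g2 had 30.7, 34.3 and 33.6 RPM in antibiotics libraries, against 27.4, 21.5 and 27.0 in control libraries, which did not overlap.

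Transcript length moved with these changes. The tested genes here have a median transcript of 861 bases, against 2829 for tested protein-coding genes. Outside the 94, protein-coding genes of up to 600 bases had a median log2 change of -0.22 with antibiotics and -0.20 without, and those over 5000 bases 0.14 and 0.19. The 24 genes of up to 600 bases among the 94 had medians of -0.36 and -0.33, below the other genes of that length. Of those other genes, 23.2% were called lower with antibiotics and 22.6% without, beside 8 and 6 of the 24. From 600 to 900 bases, 19.8% and 16.9% of other genes were called lower, beside 11 and 7 of 22 here. Calls of short genes were thus more frequent outside the 94 as well. The gap in medians varied with length. For the 17 genes of 1300 to 2000 bases it was small with antibiotics, at -0.06 against -0.02 for other genes, and -0.18 against -0.04 without. For the 3 genes of 3000 to 5000 bases it was wide with antibiotics, at -0.41 against 0.10. Across 87 of the genes, which share libraries, Spearman's rho between length and change was 0.41 with antibiotics and 0.47 without. When the trend over length was taken out of each library, medians of the 87 moved to -0.11 and -0.12 and the calls to 9 lower and 3 higher (Cox7a2l, Ndufa6 and Uqcrh) with antibiotics and 8 lower without. Ndufa4 was the single gene called lower in both. Cycs, Ndufab1, Ndufa12, Ndufb10 and Atp5g1 kept their calls with antibiotics, and Cox6b1, Ndufa9 and Atp5o without. The c ring kept 1 call in each comparison. What part of the other changes goes with length was not tested.

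**Figure D5:**
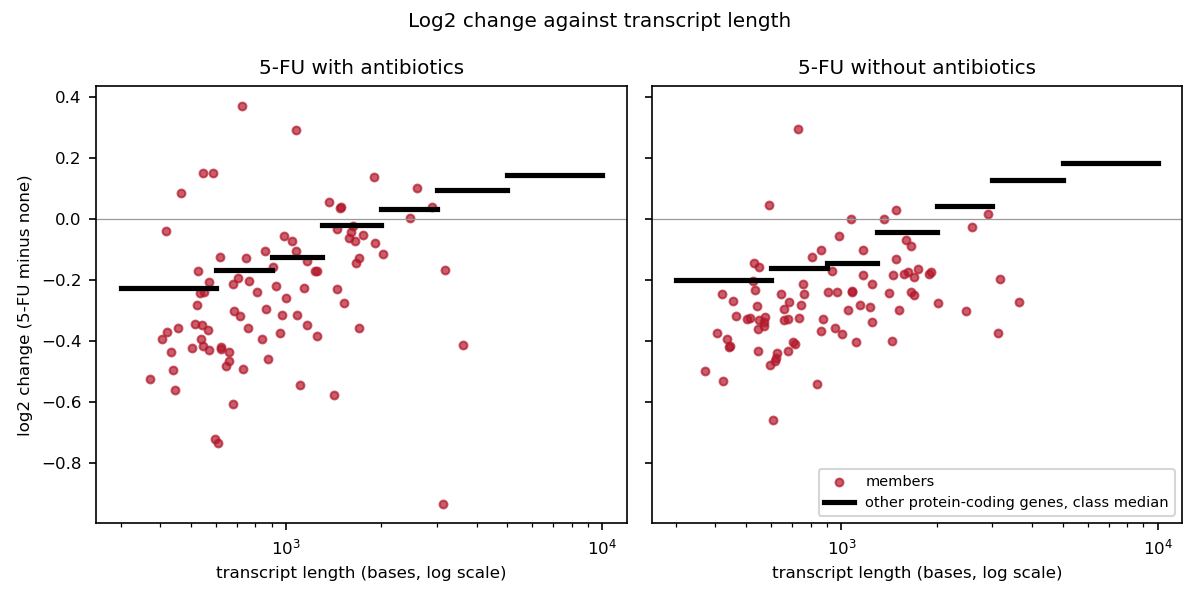
Log2 change after 5-FU against transcript length in bases on a log scale, with antibiotics on the left and without on the right. Points are the tested genes of oxidative phosphorylation and black bars are medians of other protein-coding genes in length classes, which climb from -0.22 to 0.14 with antibiotics and from -0.20 to 0.19 without.

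Near-identical pseudogenes took reads as well. Copies with at least 95% identity over at least 150 bases were found for 20 of the 94 genes, and for 10 they held over 10% of the gene's own reads. The share was 109.9% for Atp5g1, whose copy is Gm10039, 74.3% for Ndufa12, 73.6% for Ndufab1 and 61.2% for Cox7c. Reads of such a gene and its copy cannot be told apart with certainty. Gene and copy summed changed by -0.71 with antibiotics for Atp5g1, -0.49 for Ndufa12, -0.62 for Ndufab1 and -0.44 for Cox7c, close to the genes alone.

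Genes that build or serve the complexes were counted from lists, to be read against the 10.3% of all genes called lower with antibiotics and 7.97% without. Of 23 tested assembly factors of complex IV, 7 fell (30.4%) and 1 rose with antibiotics, with a median of -0.21, and 2 fell without (8.7%, near that background), with a median of -0.10. Sco2, a copper chaperone, changed by -0.61 ± 0.14 with antibiotics and Cmc2 by -0.71 ± 0.14 without. Of 8 assembly factors of complex I outside the Ndufaf names, 1 and 0 fell, and of 6 of complex III 1 fell in each, Bcs1l, which inserts the Rieske protein. A single gene is 12.5% and 16.7% of lists this short, which does not set them apart from all genes. Of 12 genes of coenzyme Q and cytochrome c synthesis, 2 fell and 1 rose with antibiotics and 3 fell without, Coq4 among them in both. Of 8 tested genes listed for exchange of ATP, ADP, phosphate and protons, 1 fell with antibiotics and 3 without. This list also holds Mcu and the Vdac genes, which are not carriers. Slc25a5, an ATP and ADP exchanger, fell in both, at -0.37 ± 0.10 and -0.31 ± 0.10. For complex II 4 assembly factors were tested, and for complex V 6 assembly and accessory factors, and 0 of either list were called.

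Of 19 regulators of mitochondrial gene expression, 1 rose in each comparison (5.26%), against 11.6% and 8.94% of all genes, and 1 fell with antibiotics (5.26%) and 0 without, so calls were no more frequent here than among all genes. Gabpa, the DNA-binding part of GABP, rose in both comparisons, at 0.49 ± 0.16 with antibiotics (adjusted p = 0.0461) and 0.63 ± 0.16 without (adjusted p = 0.0204). Pprc1, a coactivator of the PGC-1 family, fell with antibiotics by 0.64 on the log2 scale (adjusted p = 0.00206).

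Genes listed for HSC identity were present. The list also holds Cd34, Flt3 and Cd48, which are not markers of HSCs alone, so it does not set HSCs apart from progenitors. All 13 listed genes were tested, and 6 rose and 2 fell with antibiotics, while 5 rose and 2 fell without. Of all tested genes, 11.6% were called higher and 10.3% lower with antibiotics, and 8.94% and 7.97% without. Markers of other cells moved as well. The 15 mature neutrophil and monocyte genes summed to 547 to 584 RPM in antibiotics 5-FU libraries, against 478 to 600 in antibiotics libraries. They summed to 575 to 1162 RPM in control 5-FU libraries, against 606 to 704 in control libraries, and 4 of the 11 tested rose without antibiotics and 0 with. Lyz2 made up most of these sums, at 504 ± 17.6 RPM in antibiotics 5-FU, 508 ± 49.3 in antibiotics, 554 ± 69.6 in control 5-FU and 568 ± 23.3 in control libraries. S100a8 and Ngp were uneven over the control 5-FU libraries, at 78.5 ± 66.3 and 65.6 ± 79.8, against 8.62 ± 3.04 and 6.51 ± 4.21 in control libraries (SD, n = 3 each). The 12 erythroid genes summed to 312 to 704 RPM in antibiotics 5-FU libraries, against 87.5 to 117 in antibiotics libraries, and 4 rose. They summed to 255 to 355 RPM in control 5-FU libraries, against 94.5 to 409 in control libraries, where 2 rose and 2 fell.

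The 8 stroma and endothelium genes summed to 173 to 772 RPM in antibiotics 5-FU libraries, against 99.4 to 115 in antibiotics libraries. They summed to 187 to 676 RPM in control 5-FU libraries, against 115 to 201 in control libraries. Of the 7 tested, 1 rose in each comparison (14.3%), against 11.6% and 8.94% of all genes. The libraries were uneven, with Cxcl12 at 101 ± 172 RPM in antibiotics 5-FU and Kdr at 68.9 ± 87.3 in control 5-FU libraries (SD, n = 3 each). The 8 macrophage genes overlapped in both pairs, at 103 to 176 RPM in antibiotics 5-FU libraries, against 51.4 to 195 in antibiotics libraries, and at 74.1 to 115 RPM in control 5-FU libraries, against 37.3 to 109 in control libraries. The 8 T and NK cell genes summed to 93.7 to 106 RPM in antibiotics 5-FU libraries, against 39.0 to 48.9 in antibiotics libraries, and to 87.9 to 120 RPM in control 5-FU libraries, against 44.3 to 59.1 in control libraries. Most of that difference was Klrb1c, an NK cell receptor, at 62.8 ± 5.49 RPM in antibiotics 5-FU libraries, against 7.59 ± 1.21 in antibiotics libraries, and 57.7 ± 11.3 in control 5-FU libraries, against 9.29 ± 3.61 in control libraries (SD, n = 3 each). Of the 3 tested, Klrb1c rose in both comparisons and the other two, Nkg7 and Cd4, were called in neither, while Cd3e, Cd3g and Cd8a were at the floor in every library. The 8 B cell genes summed to 37.4 to 45.8 RPM in antibiotics 5-FU libraries, against 42.9 to 52.6 in antibiotics libraries, and to 32.5 to 43.5 RPM in control 5-FU libraries, against 39.9 to 46.9 in control libraries, with Ms4a1 and Pax5 at the floor in every library. The part of such cells in the changes above was not tested.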

How the data were processed

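Values are RPKM made by the authors and deposited for 46986 features in 12 libraries. SMART-Seq v4 and Nextera XT were used, per the labels' protocols, and STAR 2.5.3a, Partek and mm10 are named by the submitters' processing notes. How reads were counted, and with which strand setting, is not given in the sources used here. Low RPKM values fell on whole reads when multiplied by the genomic span, within 0.02 reads for 55.2% to 61.0% of them, against 26.3% to 31.3% with transcript length. RPKM was therefore turned into RPM, reads scaled to the library total, by the span. The test was first designed on log2(RPKM + 1). It was changed to log2(RPM + 1) once the span was seen, before any fit, and the designed fit was run as an alternative. With so many values off whole reads, counts could not be restored and count models were left out.

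With R 4.3.3 and limma 3.58.1, 14317 genes with at least 1 RPM in 3 libraries were fitted in 1 model of 4 group means, with an intensity trend, two-sided tests and Benjamini-Hochberg adjustment over all genes in each comparison. The script was tested on simulated data. Transcript lengths were taken from GENCODE M21 as the shortest of equally ranked transcripts. The longest and then the median had been tried first and gave some genes implausible lengths; all 3 choices are among the alternatives. Pseudogene copies were found with BLAST+ 2.17.0. Promoters are from RefSeq.

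Named genes were up to 3 called per complex and comparison with the smallest p, the highest and lowest of each complex, the isoform sets and a fixed set of subunits. Other called genes are listed by name after their values were seen. The members and lists were chosen with earlier results of these data known. Coa1, Dmac1, Fmc1, Coq8a, Coq8b and Twnk were not matched by symbol.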

Additional observations from a re-analysis of the deposited data

How the results depend on the processing

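Calls among the 88 genes moved with the settings, and no called gene changed direction in the alternatives run. With the common sum of RPKM 23 uncalled genes with antibiotics and 16 without turned sign, and with the length trend removed 13 and 9 of 87, among them Ndufa9 (0.025), Cox4i1 (0.048), Cox6b1 (0.081) and Sdha (-0.0078) with antibiotics and Sdha (-0.045) without. Ndufa4, Cycs, Ndufab1, Ndufa12, Ndufb10 and Atp5g1 kept their calls with antibiotics in every alternative that tested them, and Ndufa4, Cox6b1 and Atp5o without. The calls, 26 with antibiotics and 18 without, became 12 and 9 with no filter on low values, 12 and 5 with RPKM rescaled to a common sum, 15 and 10 without the intensity trend, and 33 and 4 in fits of only the groups compared. A common sum over protein-coding genes gave 36 and 33. The deposited RPKM as first designed gave 29 and 19, and a filter of 5 RPM 29 and 20. Leaving out 1 library each gave 6 (without antibiotics 2) to 37 with antibiotics and 4 to 47 without. Among all genes, the higher share of calls was 53.0% with antibiotics and 52.9% without, against 79.2% and 83.2% with the common sum. It was 42.7% without antibiotics with the protein-coding sum.

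With the common sum, medians with antibiotics were -0.084 for complex I, 0.0057 for II, -0.068 for III, -0.063 for IV, -0.14 for V and -0.066 for all. Without antibiotics they were -0.066, -0.057, -0.051, -0.15, -0.18 and -0.095. Summed levels on that scale were, in antibiotics 5-FU HSCs, 3263 for I, 1043 for II and 4071 for V; in control 5-FU HSCs, 1099.85 for II and 3928 for V; and in antibiotics HSCs, 3434 for I, 967 for II, 1293 for III, 1538 for IV and 3977 for V. The order of the groups turned for II, III and V with antibiotics and for II without.

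With the trend over the shortest transcript removed, calls were 12 with antibiotics and 8 without. Medians with antibiotics were -0.11 for I, -0.041 for III, -0.015 for IV and -0.12 for V, and without antibiotics -0.12 for III, -0.095 for IV and -0.19 for V. With the median transcript, calls were 12 and 10. Medians with antibiotics were -0.11, -0.034, -0.0070 and -0.11, and without -0.14, -0.086 and -0.20. With the longest, calls were 13 and 10. In both of these fits 1 of the 10, Ndufa6, was higher. Medians with antibiotics were -0.10, -0.031, -0.0055 and -0.11, and without -0.14, -0.091 and -0.20. The complex III median for antibiotics at steady state was -0.088, -0.090 and -0.091 in these 3 fits. Leaving out 1 library each, complex III medians ran over -0.31 to -0.17 for 5-FU without antibiotics, -0.10 to 0.19 for antibiotics after 5-FU and -0.060 to 0.11 for the interaction.

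No paired analysis was possible because the labels give no replicate numbers that groups share. The i7 index as a block, possible for antibiotics and the interaction alone, called 0 of the 88. The length, 5 RPM and RPKM fits were chosen after seeing the data. With 3 libraries a group, small changes such as most of these lie near the limit of what the test calls, and depth is only estimated.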
